A study of Mus musculus with 54 samples.

Results

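The genotype by LPS interaction asked, gene by gene, whether the response of microglia to systemic LPS differed between Ercc1 mutant mice and their control littermates. It is the change from PBS to LPS in the mutant minus the same change in the control, on the log2 scale. It was estimated for all 17460 genes that passed a filter on low counts, in all 12 RNA libraries of the microglia priming model out of the 54 samples of the series. Each library held sorted microglia from a single mouse, with 3 mice in each of 4 groups. The mutants (KO) were Ercc1 delta/ko animals, which carry 1 truncated and 1 null allele in every cell of the body, and the controls (WT) were littermates labelled as Ercc1 wt/delta, wt/ko or wt/wt, so that a WT mouse can hold 1 mutant allele. All mice had a mixed FVB/C57BL/6J background, were 10 to 12 weeks old, and received PBS (WT-PBS, KO-PBS) or 1 mg/kg LPS (WT-LPS, KO-LPS) 3 h before the brains were taken. Microglia were sorted as living CD11b+ CD45+ Ly6c- cells. Because the mutation is not restricted to microglia, a response of these cells cannot be told apart from a response to the mutant animal around them.

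Ercc1 is a subunit of a DNA repair endonuclease, and its deficiency in mice causes accelerated ageing with microglia in a state called priming. LPS, a component of the wall of Gram-negative bacteria, acts through Toll-like receptor 4 on NF-kB and on MAP kinase signalling and induces cytokines and chemokines. Immediate early genes such as Fos and Egr1 are switched on through MAP kinases without new protein synthesis and are shut off again quickly, so a single time point 3 h after the injection records their level late in that course. An interaction can arise in 4 ways, and each gene was placed by the size of its LPS response in each genotype: a positive interaction was a stronger induction where the KO response was the larger in size and a weaker fall otherwise, and a negative interaction was a stronger fall where the KO response was the larger and a weaker induction otherwise. These names follow the fitted signs, and a gene in the class of stronger induction may not have been induced in WT mice at all.

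Library totals lay between 18243891 and 34659337 expected counts, and levels are given as CPM, the count divided by the TMM-scaled library total in units of 1000000 counts. Ercc1 itself had 9.58, 10.96 and 8.79 CPM in WT mice after PBS and 9.82, 7.93 and 8.70 CPM after LPS. The KO mice had 6.36, 5.14 and 8.19 CPM after PBS and 4.67, 5.11 and 6.82 CPM after LPS. The interaction of Ercc1 was -0.10 ± 0.29 (log2 ± standard error, adjusted p = 0.883). The microglia markers were the most abundant of the marker lists, and their summed level was 24790 to 33320 CPM in KO-LPS, 38130 to 45650 CPM in WT-LPS and 35230 to 38250 CPM in KO-PBS. In WT-PBS it was 50890 and 55340 CPM in Control_PBS_170 and Control_PBS_171 and 27800 CPM in Control_PBS_175, which stood apart from its group. Neutrophil markers summed to 27.1 CPM in KO_LPS_600 and to at most 0.618 CPM in the other 11 libraries, with 2 of 9 markers (Elane and Ly6g) at 0 in every library. Summed monocyte markers were 109 to 120 CPM in KO-LPS, 40.0 to 86.2 CPM in KO-PBS and 12.5 to 30.9 CPM in the WT libraries, and border-associated macrophage markers were 52.4 to 66.6 CPM in KO-LPS against 8.18 to 34.7 CPM elsewhere. Endothelial markers summed to 51.2 to 63.0 CPM in WT-PBS, 102 to 107 CPM in WT-LPS, 38.0 to 54.4 CPM in KO-PBS and 46.5 to 71.1 CPM in KO-LPS, with 0 of 9 markers at 0 in every library. The 4 of them that passed the filter on low counts had negative interactions (median -0.79). Flt1, a receptor of vascular growth factors, passed the test (-1.79 ± 0.35, adjusted p = 0.016) but was near the floor in WT mice. It was at 0.268 to 0.317 CPM in WT-PBS and 0.712 to 1.16 CPM in WT-LPS. In KO mice it was higher at both treatments, at 10.0 to 15.5 CPM after PBS and 10.55 to 13.6 CPM after LPS, unlike the summed endothelial markers. Xist was high in 1 of 3 mice in each WT group and in 2 of 3 mice in each KO group, and Control_PBS_175 was the only Xist-high library in WT-PBS. The part of these differences in the interaction was not tested beyond the fits given here, and in bulk libraries fewer cells of a type and less RNA per cell cannot be told apart.

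Of the 17460 genes, 125 were called (adjusted p under 0.01 and a log2 interaction above 1 or below -1), which is 0.716% of the genes tested. The interaction was positive in 27 genes (0.155%) and negative in 98 (0.561%). The stronger fall was the most frequent class with 80 genes, followed by 24 genes of stronger induction, 18 of weaker induction and 3 of weaker fall. When the adjusted p had only to be under 0.05 and the size was left free, 270 genes (1.55%) had a positive and 538 (3.08%) a negative interaction. The median interaction over all genes tested was -0.04, and 20.7% of them had an unadjusted p under 0.05. These counts depended on single libraries: leaving out 1 of the 12 libraries at a time gave 0 to 57 genes of stronger induction, 0 to 7 of weaker fall, 1 to 140 of stronger fall and 0 to 67 of weaker induction, and the counts for each library are given with the methods at the end. The sign of the interaction was the same in every one of these fits for all 125 genes. The genes were chosen for a large interaction in the same libraries, most of which each fit reuses. Their kept sign is therefore a description and no sign of stability.

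**Figure D1:**
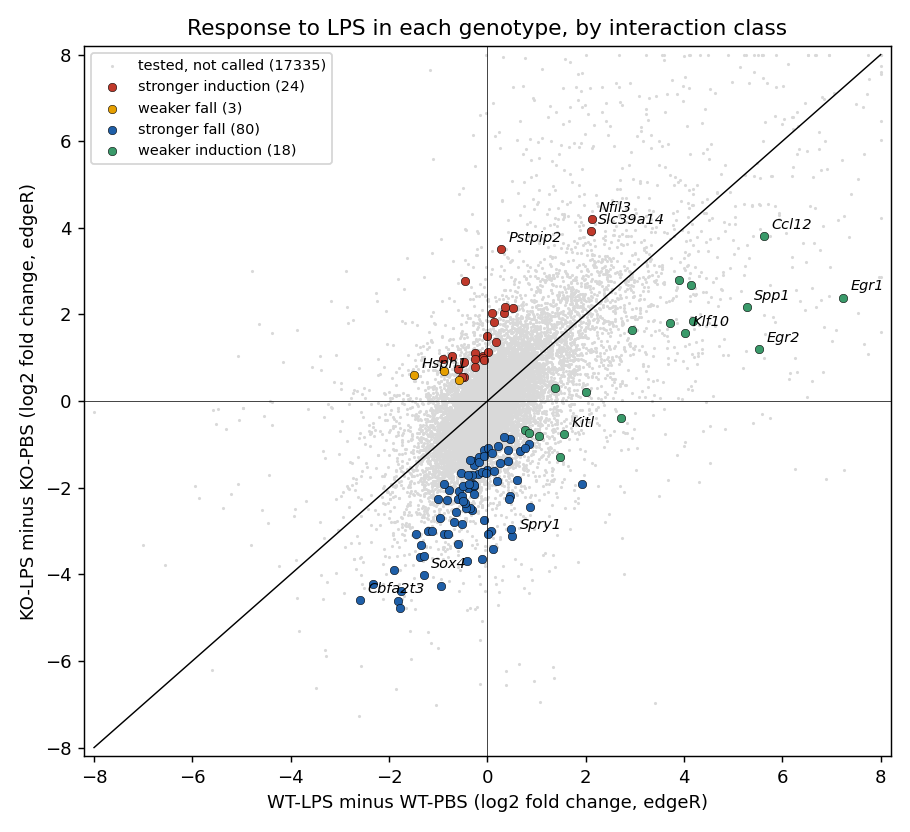
Log2 fold change of LPS over PBS in WT mice (x axis) against that in KO mice (y axis) for the 17460 genes tested (edgeR, 3 mice per group), with the line of equal responses. The 80 genes of stronger fall lie below the line and below 0 on the y axis, and the 18 genes of weaker induction lie to the right of 0 and below the line. Points beyond 8 are drawn at the edge.

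Promoter sequences are shown for a gene or a pair of genes of the 3 larger classes, since genes that moved together may carry the same short sequences, and the letters can be set beside the values that follow. Each runs from 250 bases before to 50 bases after a start site in RefSeq (GRCm38.p6), 5′ to 3′ on the strand of the gene. Capitals mark every match to the 7 motifs searched. Egr2 has 5 such starts, of which 1 is printed. Its first start has no CArG box and no CCAAT box but kappaB matches 117 and 116 bases before the start. N4bp1 of the stronger induction, which is not printed, held no match to any of the motifs. The following are Spry1 of the stronger fall (chr3:37639697-37639996, plus strand, a CCAAT box 244 bases before the start), Nfil3 of the stronger induction (chr13:52980990-52981289, minus strand, a CCAAT box 77 bases before), and of the weaker induction Egr2 (chr10:67537619-67537918, plus strand, a CCAAT box 121 bases and a CArG box 72 bases before) and Epha2 (chr4:141300971-141301270, plus strand, a CHR 208 bases and a CRE 33 bases before).
Spry1: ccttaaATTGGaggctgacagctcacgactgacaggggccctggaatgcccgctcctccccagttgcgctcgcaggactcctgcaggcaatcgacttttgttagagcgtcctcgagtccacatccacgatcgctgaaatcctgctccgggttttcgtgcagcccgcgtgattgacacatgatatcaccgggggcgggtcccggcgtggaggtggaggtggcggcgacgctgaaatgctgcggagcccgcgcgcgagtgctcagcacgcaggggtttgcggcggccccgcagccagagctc
Nfil3: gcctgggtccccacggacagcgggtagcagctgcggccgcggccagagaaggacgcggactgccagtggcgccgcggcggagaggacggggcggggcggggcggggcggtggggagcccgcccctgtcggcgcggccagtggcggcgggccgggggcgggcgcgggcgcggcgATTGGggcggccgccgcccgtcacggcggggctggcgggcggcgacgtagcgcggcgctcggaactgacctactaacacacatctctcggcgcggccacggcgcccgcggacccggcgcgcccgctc
Egr2: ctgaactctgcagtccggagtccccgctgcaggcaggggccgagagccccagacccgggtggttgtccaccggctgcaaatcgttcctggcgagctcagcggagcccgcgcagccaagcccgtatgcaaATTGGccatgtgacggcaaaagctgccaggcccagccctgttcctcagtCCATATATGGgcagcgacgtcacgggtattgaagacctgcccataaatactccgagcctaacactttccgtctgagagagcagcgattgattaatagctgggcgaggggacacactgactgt
Epha2: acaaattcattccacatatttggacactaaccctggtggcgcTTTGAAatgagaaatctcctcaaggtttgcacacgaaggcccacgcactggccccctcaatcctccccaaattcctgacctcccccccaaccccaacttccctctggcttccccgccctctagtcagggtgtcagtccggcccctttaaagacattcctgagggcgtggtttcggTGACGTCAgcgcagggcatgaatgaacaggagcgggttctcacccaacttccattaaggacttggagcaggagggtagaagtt
The motifs were searched on both strands, as CCAAT for the CCAAT box, TTTGAA for the CHR (a cell cycle element), TGACGTCA for the CRE, the site of CREB proteins, TTTCNNTTT for the ISRE, the interferon response element, TGANTCA for AP-1, and by name the kappaB site and the CArG box, the site of serum response factor. A CRE was found in 3 of 21 promoters of weaker induction (14.3%; Epha2, Dusp8 and Btg2), in 1.06% of 94 promoters of stronger fall, and in 2.96% of the 13812 promoters of genes tested. A CArG box was found in 4 of those 21 promoters (19.0%), which are alternative starts of Egr2 alone, in 4.26% of the promoters of stronger fall and in 1.26% of promoters of tested genes. A kappaB site was found in 3 of 13 promoters of stronger induction (23.1%; Hivep1, Ric1 and Stxbp3) and in 10.4% of promoters of tested genes, and the CCAAT box was found in 38.5% of the former, in 44.7% of promoters of stronger fall and in 37.6% of promoters of tested genes. The kappaB site was found in 8.51% of promoters of stronger fall and in 9.52% of those of weaker induction. The CCAAT box was found in 38.1% of promoters of weaker induction. In stronger induction the CRE was found in 7.69% and the CArG box in 0% of promoters. Of all 32851 promoters in the table, 1.79% held the CRE, 1.63% the CArG box, 8.46% the kappaB site and 37.4% the CCAAT box. For AP-1 the shares in promoters of stronger induction, stronger fall, weaker induction and tested genes were 0%, 5.32%, 0% and 5.08%. In the same order they were 0%, 6.38%, 9.52% and 8.25% for the ISRE and 0%, 6.38%, 14.3% and 12.4% for the CHR. Promoters were found for 13 of 24, 3 of 3, 62 of 80 and 16 of 18 genes of stronger induction, weaker fall, stronger fall and weaker induction. A match describes the letters only.

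The 80 genes of stronger fall fell after LPS in the KO mice more than in the WT mice. A KO response below 0 is part of the class definition. All 80 fell in KO mice at an adjusted p under 0.05, with a median log2 change of -2.19. In WT mice 25 fell, 5 rose and 50 did not pass the test, with a median of -0.31. Of all 17460 genes tested, 3370 fell in KO mice, and 1598 fell, 1861 rose and 14001 did not pass in WT mice. After LPS, 78 of the 80 were lower in KO than in WT mice at an adjusted p under 0.05 (13.6% of all genes tested were), and in the same number every KO-LPS library lay below every WT-LPS library, which held for 4303 of the 17460 genes tested. After PBS, 6 were higher and 13 lower in KO (8.19% and 3.37% of all genes), and the median difference between the genotypes was -0.09 log2 after PBS and -1.87 log2 after LPS. These counts come from the libraries that chose the genes and are given as a description.

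Spry1, an inhibitor of receptor tyrosine kinase signalling to ERK, had the largest interaction among the genes that the naming rule of the methods selected in this class. Its level was 14.97, 15.5 and 23.5 CPM in WT-PBS against 20.5, 27.4 and 29.2 CPM in WT-LPS. The KO mice had 15.8, 14.3 and 11.5 CPM after PBS and 1.79, 2.10 and 0.916 CPM after LPS. The 3 KO-LPS libraries were lower than all others, and the remaining 9 libraries overlapped between groups. The interaction was -3.63 ± 0.39 (adjusted p = 0.0022), with a WT response of 0.51 (adjusted p = 0.186) and a KO response of -3.12 (adjusted p = 9.2e-06). Rnf144b, an E3 ubiquitin ligase, went from 92.9, 104 and 197 CPM after PBS to 58.7, 72.1 and 72.5 CPM after LPS in WT mice. The KO levels went from 75.3, 93.3 and 89.9 CPM to 5.62, 4.66 and 3.04 CPM. The highest of its 12 values was Control_PBS_175, and the lowest 3 were again the KO-LPS libraries. It fell in both genotypes, by 0.95 log2 in WT and 4.27 log2 in KO mice, and the interaction was -3.32 ± 0.39 (adjusted p = 0.0022).

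Several transcription regulators fell in the KO mice. Sox4, an SRY-related factor of progenitor cells, went from 154, 156 and 91.7 CPM to 45.8, 64.2 and 54.4 CPM in WT mice. In KO mice the levels were 105, 121 and 88.2 CPM after PBS and 6.46, 7.26 and 5.61 CPM after LPS. LPS lowered it in both genotypes, by 1.29 log2 in WT (adjusted p = 9.8e-04) and by 4.02 log2 in KO mice (adjusted p = 2.9e-07), and the interaction was -2.73 ± 0.30 (adjusted p = 0.0022). Ebf3, a factor of the early B cell factor family, had 38.8 to 90.5 CPM over the 6 PBS-treated and 45.5 to 46.6 CPM over the 3 WT-LPS libraries. In KO-LPS it was at 9.01, 6.30 and 5.24 CPM, and its interaction was -2.70 ± 0.38 (adjusted p = 0.0040). Tet1, which oxidises 5-methylcytosine in DNA, was at 21.3, 20.5 and 10.9 CPM in WT-PBS and at 10.9, 17.97 and 10.8 CPM in WT-LPS. Its KO levels were 12.97, 17.3 and 9.91 CPM after PBS and 0.895, 1.46 and 0.770 CPM after LPS, and the interaction was -3.29 ± 0.47 (adjusted p = 0.0042). E2f2, an E2F factor of the cell cycle, was the only one of the 10 named genes of the class that was higher in KO after PBS at an adjusted p under 0.05. E2f2 was at 19.7, 20.9 and 20.9 CPM in KO-PBS against 9.90, 14.1 and 5.26 CPM in WT-PBS. After LPS the order was turned, with 5.30, 6.76 and 5.24 CPM in KO against 12.6, 15.7 and 15.8 CPM in WT mice, and the interaction was -2.43 ± 0.39 (adjusted p = 0.0073).

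The other named genes of stronger fall were Mex3b, an RNA-binding KH domain protein (-3.53 ± 0.46), Kctd12b (-2.66 ± 0.37), the CCCH zinc finger gene Zc3h6 (-2.66 ± 0.36) and Ypel2 of the yippee-like family (-2.64 ± 0.37), with adjusted p from 0.0034 to 0.0039. Mex3b was between 19.0 and 34.8 CPM in the 9 libraries outside KO-LPS and at 2.14, 2.69 and 0.770 CPM in KO-LPS. Ypel2 differed from these in that it also fell in WT mice, from 21.03, 22.6 and 21.02 CPM to 5.51, 7.66 and 6.04 CPM. In KO mice it fell from 14.1, 18.1 and 16.7 CPM to 1.15, 0.365 and 0.733 CPM. On the linear scale the falls were then nearly equal, and the difference of the differences was -0.423 ± 1.45 CPM. The sign was opposite on the CPM scale in 4 of the 80 genes, against 1672 of the 17460 genes tested. These 4 fell in WT mice from a higher PBS level than in KO mice. Among them were Sema4b (50.9 ± 26.1 CPM), Sesn1 (33.3 ± 30.1 CPM) and Cbfa2t3 (23.0 ± 5.07 CPM). Sesn1 was named by the rule, and Sema4b and Cbfa2t3 were chosen after their values were seen. In 63 of the 80 genes the difference on the CPM scale had the same sign and was beyond 2 of its standard errors. This held for 4357 of the 17460 genes tested. The 80 genes were chosen by their log2 interaction in the same libraries, so these counts are a description and no second test.

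**Figure D2:**
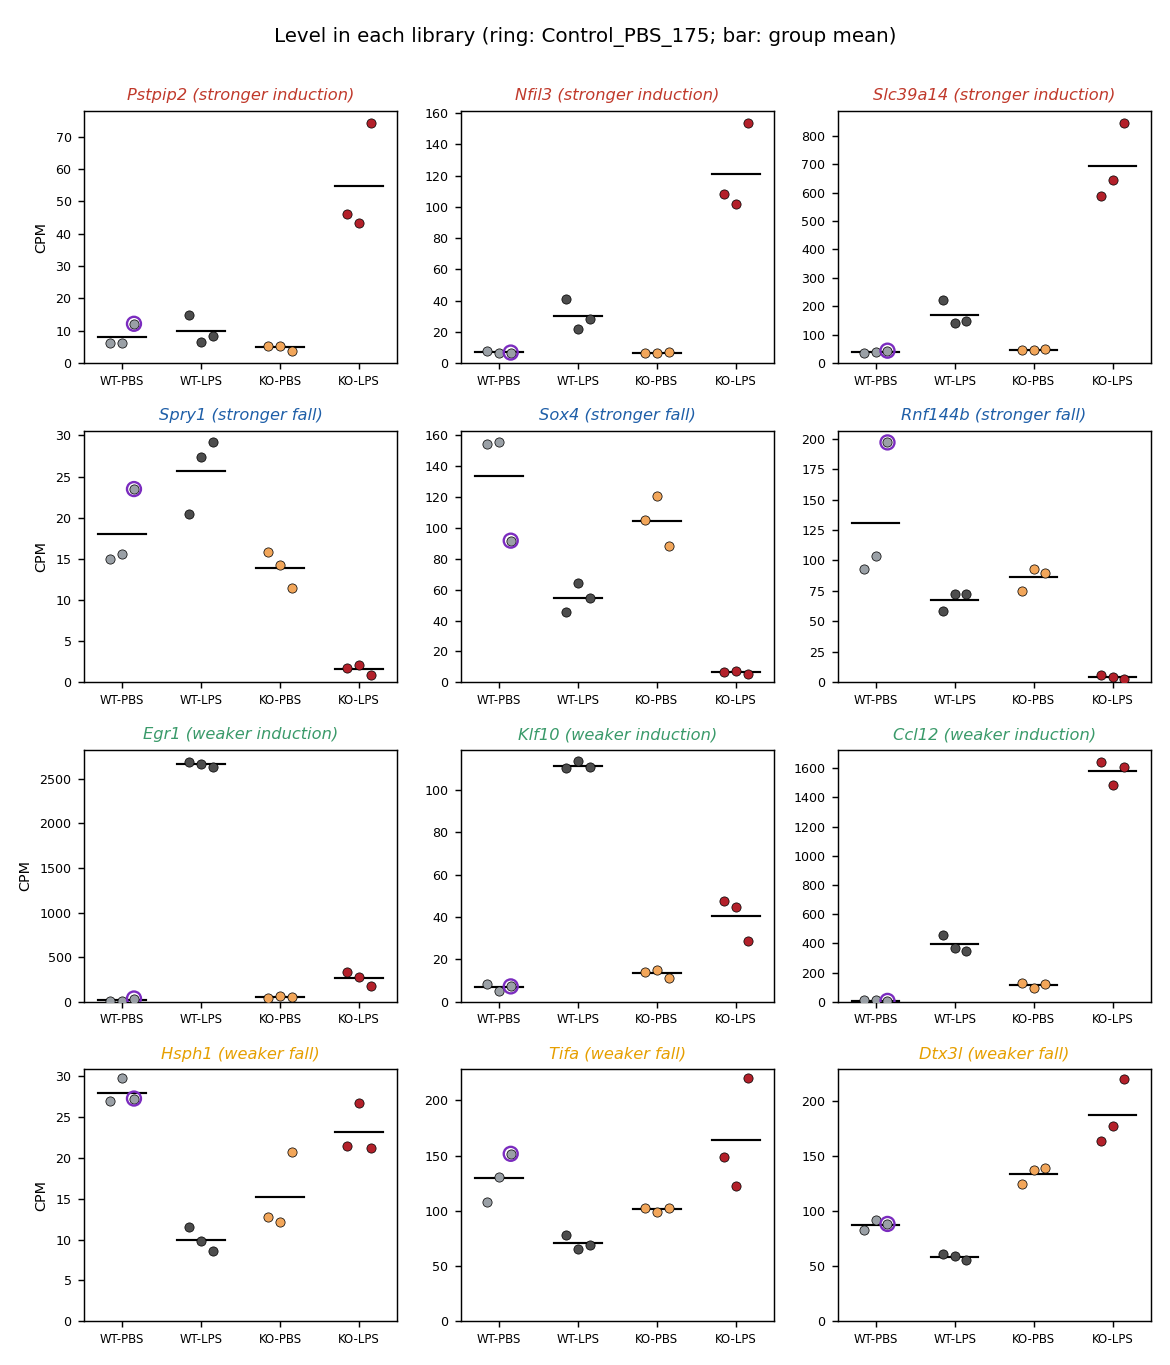
Level in CPM (y axis, linear from 0) of 12 called genes, 3 from each class, in the 12 libraries by group (x axis), with the group mean as a bar and Control_PBS_175 ringed. Spry1, Sox4 and Rnf144b are lowest in the 3 KO-LPS libraries, Pstpip2, Nfil3 and Slc39a14 are highest there, and Ccl12 is higher in KO than in WT mice after both PBS and LPS.

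The 24 genes of stronger induction had a KO response above 0 by the definition of the class. All 24 rose in KO mice at an adjusted p under 0.05, with a median log2 change of 1.13. In WT mice 2 rose, 6 fell and 16 did not pass the test, with a median of -0.07. Of all 17460 genes tested, 3097 rose in KO mice, and 1861 rose, 1598 fell and 14001 did not pass in WT mice. The fitted signs of both responses were opposite in 14 of the 24 and in 4837 of the 17460 genes tested. After LPS all 24 were higher in KO than in WT mice at an adjusted p under 0.05 (13.4% of all genes passed in that direction). In all 24 every KO-LPS library lay above every WT-LPS library, which held for 3845 of the 17460 genes tested. After PBS, 2 were higher and 3 lower in KO (8.19% and 3.37% of all genes). These values are parts of the contrast that chose the 24 genes and are given as a description. The median interaction was 1.44, smaller in size than the median of -1.83 in the stronger fall. No gene of the class changed sign on the CPM scale, against 1672 of the 17460 genes tested, which again describes genes chosen in the same libraries.

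Nfil3 and Slc39a14 were the 2 genes that rose in both genotypes. Nfil3, a basic leucine zipper repressor, rose from 7.64, 6.55 and 6.65 CPM to 40.8, 21.7 and 28.2 CPM in WT mice. It rose from 6.05, 6.33 and 7.31 CPM to 108, 102 and 154 CPM in KO mice. The PBS groups overlapped and the LPS groups did not, and the interaction was 2.08 ± 0.31 (adjusted p = 0.0051). Slc39a14, an importer of zinc, iron and manganese, rose from 36.4, 39.2 and 43.2 CPM to 223, 140 and 148.6 CPM in WT mice. The rise in KO mice was from 44.0, 45.0 and 47.7 CPM to 589, 645 and 847 CPM, and the interaction was 1.82 ± 0.26 (adjusted p = 0.0040). In both genes KO_LPS_600 was the highest of the KO-LPS group.

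Pstpip2, an F-BAR adaptor of myeloid cells, had the largest interaction of the class, at 3.23 ± 0.50 (adjusted p = 0.0060). It was at 6.09, 6.27 and 12.1 CPM in WT-PBS, 14.9, 6.47 and 8.44 CPM in WT-LPS, while KO-PBS had 5.30, 5.40 and 3.81 CPM. In KO-LPS it reached 46.2, 43.4 and 74.4 CPM. Zhx2, a zinc finger and homeobox factor, was at 13.2, 13.3 and 30.6 CPM in WT-PBS and 15.4, 13.6 and 13.03 CPM in WT-LPS. It rose in KO mice from 9.26, 8.67 and 10.3 CPM to 43.1, 45.5 and 104 CPM, and the interaction was 3.22 ± 0.52 (adjusted p = 0.0079). For both genes the highest WT-PBS value was that of Control_PBS_175. N4bp1, a negative regulator of NF-kB signalling, lay between 148.7 and 230 CPM in the 9 libraries outside KO-LPS and at 599, 541 and 864 CPM in KO-LPS, with an interaction of 1.94 ± 0.27 (adjusted p = 0.0039). Hivep1, a zinc finger protein that binds kappaB sites, followed the same pattern, with 54.7 to 98.6 CPM in the 9 libraries and 211, 221 and 372 CPM in KO-LPS (1.81 ± 0.31, adjusted p = 0.0093).

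Slc31a2, a copper transporter family member, and the tetraspanin Tspan33 moved in opposite directions in the genotypes. Slc31a2 fell in WT mice from 32.1, 29.5 and 47.3 CPM to 21.5, 18.7 and 18.3 CPM and rose in KO mice from 34.7, 30.8 and 32.9 CPM to 58.2, 53.2 and 80.8 CPM (1.86 ± 0.27, adjusted p = 0.0042). Tspan33 fell in WT mice from 35.4, 33.3 and 32.2 CPM to 22.6, 19.9 and 19.1 CPM and rose in KO mice from 38.68, 36.8 and 40.6 CPM to 72.5, 58.9 and 106 CPM (1.74 ± 0.25, adjusted p = 0.0041). The 2 remaining named genes were the E3 ligase Rnf149 (1.69 ± 0.26) and Gdap10 (1.69 ± 0.27). Below them in the class, with interactions of 1.01 to 1.38 and named here after their values were seen, stood the transcription factors Foxo1 (1.38 ± 0.19), Creb1 (1.21 ± 0.21) and Rest (1.14 ± 0.17).

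The 24 genes were all higher in KO_LPS_600 than the mean of the other KO-LPS libraries, by a median of 0.34 log2, and the stronger fall genes were lower in it by a median of 0.40 log2, with 9 of 80 higher. The same library held the neutrophil markers, and of 9 such markers 1 passed the filter on low counts. Without KO_LPS_600, 18 genes of stronger induction, 4 of weaker fall, 60 of stronger fall and 15 of weaker induction were called, and the median interaction of the 24 genes went from 1.44 to 1.37 and that of the 80 genes from -1.83 to -1.66. The part of these markers in the result was not tested.

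The 3 genes of weaker fall are better described by their values than by the name, since each fell in WT mice and rose in KO mice. Hsph1, a chaperone of the HSP110 family, fell from 26.98, 29.8 and 27.3 CPM to 11.5, 9.77 and 8.62 CPM in WT mice and went from 12.7, 12.1 and 20.8 CPM to 21.4, 26.8 and 21.2 CPM in KO mice (2.09 ± 0.28, adjusted p = 0.0036). The WT-PBS and KO-LPS libraries were the 2 high groups, without overlap between them. Tifa, an adaptor that links TRAF proteins to NF-kB, fell from 108, 130 and 152 CPM to 77.8, 65.3 and 68.6 CPM in WT mice. The rise in KO mice was from 102, 99.3 and 103 CPM to 148.9, 122 and 220 CPM (1.57 ± 0.27, adjusted p = 0.0092). Dtx3l, an E3 ligase partner of PARP9, fell from 82.3, 92.0 and 88.2 CPM to 60.5, 59.4 and 55.1 CPM in WT mice and rose from 125, 137 and 139 CPM to 163, 177 and 220 CPM in KO mice. It was already higher in KO after PBS (0.61 log2, adjusted p = 0.0052), and its interaction was 1.07 ± 0.16 (adjusted p = 0.0060).

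All 18 genes of weaker induction rose in WT mice, with a median log2 change of 3.33. In KO mice 10 of them rose and 5 fell, with a median of 1.39. Of all 17460 genes tested, 1861 rose in WT mice, and 3097 rose and 3370 fell in KO mice. After PBS, 10 of the 18 were higher in KO than in WT mice (8.19% of all genes were) and 1 was lower. After LPS, 13 were lower in KO than in WT mice and 3 were higher (13.6% and 13.4% of all genes). Both differences belong to the contrast that chose the genes, and their counts only describe the class.

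Egr1, Egr2 and Klf10, which encode transcription factors, were lower in every KO-LPS than in every WT-LPS library. Egr1, a zinc finger factor downstream of MAP kinases, was at 9.62, 6.45 and 36.4 CPM in WT-PBS and at 2688, 2665 and 2633 CPM in WT-LPS. The KO levels were 36.5, 64.2 and 50.6 CPM after PBS and 330.3, 279 and 182 CPM after LPS. No LPS library of one genotype overlapped with the other, and the lower 2 WT-PBS values lay below the KO-PBS values, while Control_PBS_175 lay just below the lowest of these. The interaction was -4.85 ± 0.72 (adjusted p = 0.0049), and -5.93 (adjusted p = 1.9e-05) without Control_PBS_175. Egr1 was called in 2 of the 12 fits with 1 library left out. Egr2, whose promoter is printed above, rose in WT mice from 3.28, 0.881 and 4.53 CPM to 136, 133 and 140.0 CPM. In KO mice it was at 10.1, 20.6 and 9.57 CPM after PBS and 39.3, 30.4 and 22.3 CPM after LPS, and the interaction was -4.33 ± 0.61 (adjusted p = 0.0039). Klf10, a Krueppel-like factor known as a TGF-beta early response gene, rose in WT mice from 8.17, 5.11 and 7.24 CPM to 110.0, 113 and 111 CPM. In KO mice the levels were 14.2, 15.2 and 11.4 CPM after PBS and 47.4, 44.9 and 28.7 CPM after LPS, and the interaction was -2.45 ± 0.29 (adjusted p = 0.0022).

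Dusp8, Epha2 and Kitl had the same order of the LPS groups. Dusp8, a phosphatase of the MAP kinases JNK and p38, was at 1.76 to 3.08 CPM in WT-PBS and 3.49 to 3.96 CPM in KO-PBS. After LPS it was at 46.02, 43.3 and 41.4 CPM in WT mice against 16.0, 15.02 and 9.49 CPM in KO mice (-2.35 ± 0.31, adjusted p = 0.0034). Epha2, an ephrin receptor tyrosine kinase, was induced in WT mice from 38.0, 32.0 and 10.6 CPM to 162, 195 and 174 CPM. In KO mice it was at 67.7, 73.7 and 61.8 CPM after PBS and at 58.6, 57.5 and 38.6 CPM after LPS. This response of -0.39 did not pass the test (adjusted p = 0.388), and the interaction was -3.12 ± 0.48 (adjusted p = 0.0062). Kitl, the ligand of the receptor Kit, rose in WT mice from 14.2, 17.0 and 20.8 CPM to 57.4, 45.0 and 51.8 CPM and fell in KO mice from 13.7, 16.2 and 16.5 CPM to 12.1, 10.6 and 4.69 CPM (-2.33 ± 0.38, adjusted p = 0.0085). Its PBS groups overlapped (-0.17 log2 between the genotypes, adjusted p = 0.753), and its LPS groups did not (-2.50 log2, adjusted p = 6.0e-05).

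Spp1, Ccl12 and B3gnt7 had a smaller fold induction in KO mice from a higher level after PBS. Spp1 encodes osteopontin, a marker of reactive microglia, and went from 3.21, 2.57 and 3.70 CPM to 170, 97.7 and 101 CPM in WT mice. It went in KO mice from 88.3, 226 and 157 CPM to 852, 840.1 and 431 CPM. Its KO-LPS libraries were the highest of all. The log2 interaction was -3.10 ± 0.51 (adjusted p = 0.0080), although the rise in CPM was larger in KO mice (551 against 120 CPM, a difference of 431 ± 146 CPM). Ccl12, a monocyte-attracting chemokine, rose from 8.77, 9.13 and 5.85 CPM to 457, 371 and 350.4 CPM in WT mice. The KO levels went from 126, 91.1 and 120.0 CPM to 1642, 1486 and 1609 CPM. The log2 interaction was -1.82 ± 0.26 (adjusted p = 0.0039), and the rise was 1467 CPM in KO against 385 CPM in WT mice. Kif2c, a mitotic kinesin chosen after its values were seen, was the third gene of the class with opposite signs on the log2 scale (-1.46) and the CPM scale (15.7 ± 3.11 CPM). B3gnt7, a glycosyltransferase, ended at 63.0, 50.6 and 62.1 CPM in WT-LPS, where KO-LPS had 66.8, 69.04 and 77.3 CPM, a difference of 0.28 log2 that did not pass the test (adjusted p = 0.187). It started from 3.52, 5.25 and 4.56 CPM in WT-PBS and from 18.6, 22.6 and 19.6 CPM in KO-PBS (-1.91 ± 0.21, adjusted p = 0.0022). Efr3b, the last of the named genes, was higher in KO after PBS (7.89 to 10.48 CPM against 0.724 to 1.62 CPM) and overlapped between genotypes after LPS (3.00 to 4.25 CPM against 2.15 to 4.27 CPM). Its interaction was -2.79 ± 0.47 (adjusted p = 0.0090).

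Among lists of genes of known pathways, the members that passed the test at an adjusted p under 0.05 were 17 with a positive and 23 with a negative interaction of 433 tested over all lists (3.93% and 5.31%, against 1.55% and 3.08% of all genes). In the NF-kB family and its inhibitors, 3 of 15 had a positive interaction (Relb, Tnip1 and Nfkbie), 1 a negative interaction (Bcl3), and the list's median was 0.88, against -0.04 over all genes tested. Relb, a subunit of the noncanonical pathway, rose from 24.6 to 26.96 CPM in WT-PBS to 106, 78.7 and 81.0 CPM in WT-LPS. Its rise in KO mice was from 37.5 to 47.3 CPM after PBS to 274, 238 and 358 CPM after LPS (1.00 ± 0.23, adjusted p = 0.030). Nfkbie and Tnip1, inhibitors of NF-kB signalling, had interactions of 1.71 ± 0.30 (adjusted p = 0.011) and 1.69 ± 0.41 (adjusted p = 0.037). Bcl3, a nuclear IkB protein, was also at its highest in KO-LPS (383, 321 and 441 CPM, against 262, 222 and 243 CPM in WT-LPS). It started from 15.3 to 24.1 CPM in KO-PBS against 2.61 to 5.52 CPM in WT-PBS, and its interaction was -1.58 ± 0.33 (adjusted p = 0.023). Leaving out 1 library gave 1 to 5 members with a positive interaction in this list, and 64 to 481 over all genes. DESeq2, limma and limma with sva gave 6, 5 and 7 members, and 804, 568 and 596 over all genes, against 270 with edgeR. Control_PBS_175 differed from the other WT-PBS libraries by a median of 0.47 log2 in this list, with 10 of 15 higher. Without it, 4 members had a positive and 1 a negative interaction. The part of that library in the list's median was not tested.

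In the list of Toll-like receptor signalling, 3 of 20 members had a positive interaction and 1 a negative interaction. Cd14, the coreceptor for LPS, went from 352, 374 and 537 CPM to 1602, 1100 and 1236 CPM in WT mice. Cd14 in KO mice went from 327, 315 and 279 CPM to 3306, 2705 and 5276 CPM (1.97 ± 0.35, adjusted p = 0.011). Tlr2, a receptor for bacterial lipoproteins, rose to 4764, 4281 and 5184 CPM in KO-LPS against 1173, 762 and 808 CPM in WT-LPS (1.52 ± 0.33, adjusted p = 0.025), and the ubiquitin ligase Traf6 had an interaction of 0.81 ± 0.19 (adjusted p = 0.033). Ticam1, the adaptor TRIF, was at 44.8 CPM or below in all PBS libraries and reached 126 to 147 CPM in WT-LPS against 87.9 to 93.8 CPM in KO-LPS (-0.59 ± 0.13, adjusted p = 0.025). Iron and metal handling gave 3 of 12 with a positive interaction, namely Slc39a14, the iron transporter gene Slc11a2 (1.71 ± 0.33, adjusted p = 0.016) and the ferritin heavy chain gene Fth1 (0.97 ± 0.21, adjusted p = 0.027). With a library left out, the positive members numbered 1 to 3 in the Toll-like receptor list and 1 to 4 in the iron list.

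Of 15 inflammatory cytokines, 1 passed the test, the interleukin 6 family cytokine Osm, which was at 166, 151 and 138 CPM in WT-LPS but at 118, 108 and 82.9 CPM in KO-LPS (-1.09 ± 0.25, adjusted p = 0.030). Il1b was at 747, 562 and 1425 CPM in KO-LPS against 294, 147 and 126 CPM in WT-LPS, and at 7.77, 12.97 and 12.0 CPM in KO-PBS against 1.13, 0.811 and 6.68 CPM in WT-PBS. The genotypes did not overlap at either treatment, and its interaction was 0.39 ± 0.87 (adjusted p = 0.850). The WT-PBS value of 6.68 CPM was that of Control_PBS_175. Tnf (-0.67 ± 0.85, adjusted p = 0.719), Il6 (0.13 ± 0.53, adjusted p = 0.928) and the chemokine Ccl3 (2.10 ± 1.26, adjusted p = 0.380) did not pass either. The standard errors of Il1b, Tnf, Il6 and Ccl3 were above the median of 0.33 over all genes tested. In WT-PBS, Control_PBS_175 was highest for Tnf (7.59 against 2.22 and 0.881 CPM) and Ccl3 (76.1 against 8.91 and 4.05 CPM). In KO-LPS, KO_LPS_600 was highest for Tnf (909 against 292 and 254 CPM) and Ccl3 (1541 against 346 and 286 CPM). Among chemokines, Ccl12 and Cxcl13 had a negative interaction and 0 of 16 a positive interaction. Cxcl13, which attracts B cells, had no count in the 3 WT-PBS libraries, 0.437 to 0.600 CPM in WT-LPS, 10.9 to 32.8 CPM in KO-PBS and 24.8 to 40.4 CPM in KO-LPS, and no fold is given for it. The interferon-inducible Cxcl11 had an interaction of -2.20 ± 0.68 that did not pass (adjusted p = 0.086).

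Interferon-stimulated genes gave 2 of 30 with a positive interaction, the RNA sensors Ifih1 (1.36 ± 0.33, adjusted p = 0.040) and Ddx58 (0.87 ± 0.22, adjusted p = 0.041). JAK-STAT factors and their SOCS inhibitors gave 2 of 16, the kinase gene Jak2 (1.38 ± 0.35, adjusted p = 0.043) and Socs7 (0.67 ± 0.17, adjusted p = 0.049). The number ran from 0 to 4 for the interferon-stimulated genes and from 0 to 3 for the JAK-STAT list with a library left out. DESeq2, limma and limma with sva gave 7, 3 and 6 interferon-stimulated genes. Over all genes these methods gave 804, 568 and 596 positive interactions, against 270 with edgeR. Homeostatic microglia genes gave 3 of 25 with a negative interaction and had a median of -0.50. The number was 1 to 3 with a library left out and 7 with limma and sva, which gave 1078 negative interactions over all genes against 538 with edgeR. The 3 were the transcription factor genes Sall3 (-1.48 ± 0.29, adjusted p = 0.016) and Mef2c (-1.005 ± 0.21, adjusted p = 0.020) and the crystallin gene Crybb1 (-0.96 ± 0.24, adjusted p = 0.042). Of the 25 estimates 24 were below 0, against 9219 of the 17460 genes tested. Control_PBS_175 differed from the other WT-PBS libraries by a median of -1.13 log2 in this list, and a lower WT-PBS level makes an interaction more negative. Without that library the number that passed with a negative interaction was also 3, and Sall3 was at -1.19. The part of that library in the list's median was not tested. Mef2c went from 620, 658 and 493 CPM to 397, 431 and 449 CPM in WT mice and from 492, 539 and 455 CPM to 199, 189 and 146 CPM in KO mice. Of 20 genes of the primed state, Spp1 and Fabp5 had a negative interaction and 0 a positive interaction. Fabp5, a fatty acid binding protein, was listed at 0, 0 and 0.322 CPM in WT-PBS, and its fold is not given. Clec7a and Axl, a lectin and a receptor kinase of the primed state, were higher in KO than WT mice at both treatments, and their interactions were -0.19 ± 0.42 (adjusted p = 0.848) and 0.59 ± 0.29 (adjusted p = 0.273).

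The immediate early genes were the list whose result moved most with a single library. With 12 libraries 5 of 26 members had a negative interaction, Egr1, Egr2, Btg2, Junb and Zfp36, and 0 a positive interaction. Without Control_PBS_175 the number was 14, the highest of the 12 fits with 1 library left out (4 to 14). Over all genes tested, the number with a negative interaction likewise went from 538 to 831, the highest of these fits. Btg2, an antiproliferative gene, rose from 159, 174 and 196 CPM to 1427, 1329 and 1307 CPM in WT mice. The KO mice had a rise from 104, 127 and 126 CPM to 408, 384 and 314 CPM. Control_PBS_175 was close to its group here, and the interaction of -1.31 ± 0.19 (adjusted p = 0.0042) became -1.34 ± 0.18 (adjusted p = 0.0015) without it. Junb, a subunit of AP-1, and Zfp36, which promotes the decay of cytokine mRNAs, likewise went from -1.11 and -1.05 to -1.03 and -1.17.

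Fos, Nr4a1, Ier2, Klf4 and Myc, chosen after their values were seen, show the other case. Fos, the partner of Jun in AP-1, was at 0.458 and 0.317 CPM in Control_PBS_170 and Control_PBS_171 and at 4.13 CPM in Control_PBS_175, and at 138, 157 and 149.2 CPM in WT-LPS. In KO mice it went from 2.84, 1.76 and 3.29 CPM to 36.9, 30.0 and 33.7 CPM. The LPS groups did not overlap, and the PBS groups overlapped through Control_PBS_175 alone. The interaction was -2.78 ± 0.81 (adjusted p = 0.072) with it and -4.88 ± 0.33 (adjusted p = 1.9e-05) without it. The nuclear receptor Nr4a1 was at 1.34 and 0.987 CPM in Control_PBS_170 and Control_PBS_171 and at 13.9 CPM in Control_PBS_175, with 40.0, 32.2 and 32.8 CPM in WT-LPS. Nr4a1 in KO mice was at 7.08, 5.76 and 3.81 CPM after PBS and 13.9, 9.04 and 19.8 CPM after LPS. Its interaction moved from -1.30 ± 1.01 (adjusted p = 0.518) to -3.49 ± 0.45 (adjusted p = 0.0013). Ier2 was at 3.38 and 2.71 CPM and at 24.4 CPM in the same order, and its interaction moved from -0.87 ± 0.84 (adjusted p = 0.613) to -2.57 ± 0.28 (adjusted p = 5.4e-04). For Klf4, a Krueppel-like factor, the estimate changed sign, from 0.44 ± 1.38 (adjusted p = 0.897) to -2.99 ± 0.53 (adjusted p = 0.0063), with 2.29 and 0.775 CPM in Control_PBS_170 and Control_PBS_171 and 47.5 CPM in Control_PBS_175. For Myc it went from 0.02 ± 0.68 (adjusted p = 0.992) to -1.11 ± 0.25 (adjusted p = 0.021). Dusp1, a MAP kinase phosphatase that is also a glucocorticoid target, had the largest positive estimate of the list (2.95 ± 1.26, adjusted p = 0.208), which was -0.06 ± 0.43 (adjusted p = 0.967) without that library.

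**Figure D3:**
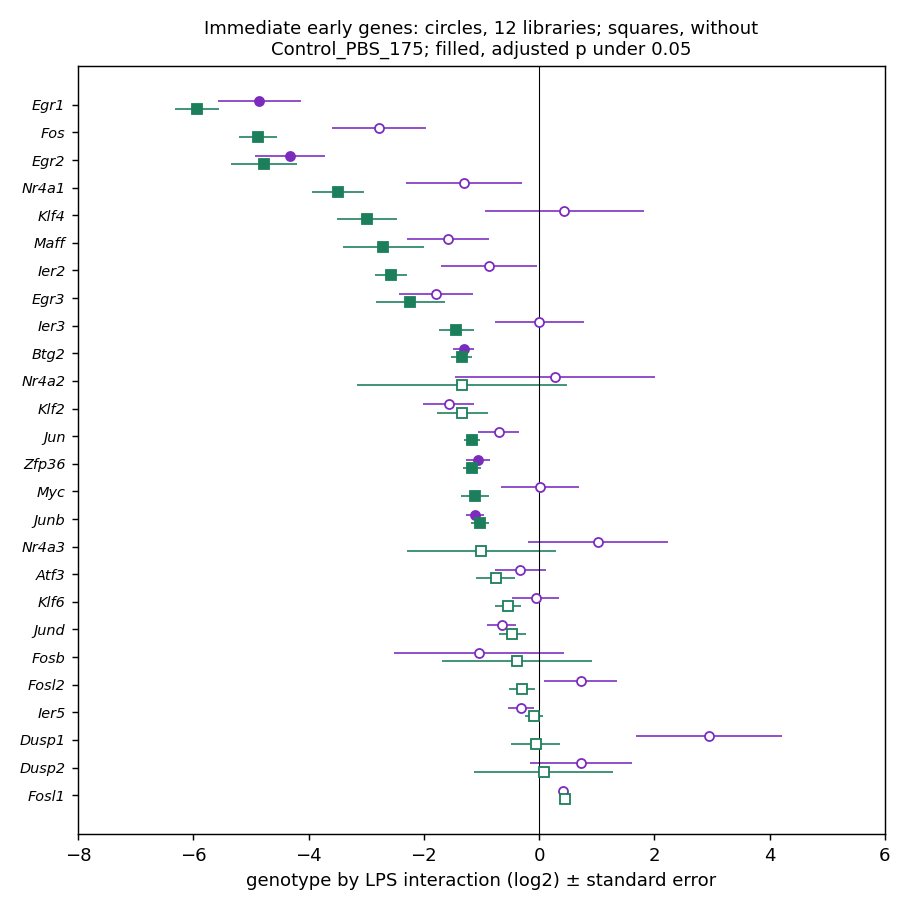
Log2 interaction (x axis, with its standard error as a bar) of the 26 immediate early genes tested, in the fit of 12 libraries (circles) and without Control_PBS_175 (squares), filled where the adjusted p was under 0.05. Of the circles 5 are filled and of the squares 14, all with negative values, and Fosl1, whose standard error could not be computed, is drawn without a bar.

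Control_PBS_175 correlated with the other 2 WT-PBS libraries at 0.952 and 0.956 (Pearson's r of log2 CPM across genes, which are not independent), against 0.970 between these, and at 0.885 to 0.911 with the KO-LPS libraries, against 0.857 to 0.892 for the other 2. In the limma fit it had the lowest of the 12 library weights, 0.193, with 0.411 for KO_LPS_600 next and 2.85 for the highest. It differed by over 1 log2 from the mean of the other 2 in 18% of the genes tested, where the 12 libraries ranged from 7.48% to 18% in the same measure within their groups. The difference was not spread evenly over the lists. The immediate early genes had a median difference of 1.66 log2 with 21 of 26 higher in it, glucocorticoid targets of 1.52 with 8 of 12 higher, homeostatic genes of -1.13 with 2 of 25 higher, and microglia markers of -1.64 with 0 of 9 higher, against 0.01 over all genes. P2ry12, a purinergic receptor of homeostatic microglia, was at 1814 CPM in it against 6934 and 7715 CPM in Control_PBS_170 and Control_PBS_171. It was at 3412 to 4446 CPM in WT-LPS and KO-PBS and 1066 to 1663 CPM in KO-LPS.

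**Figure D4:**
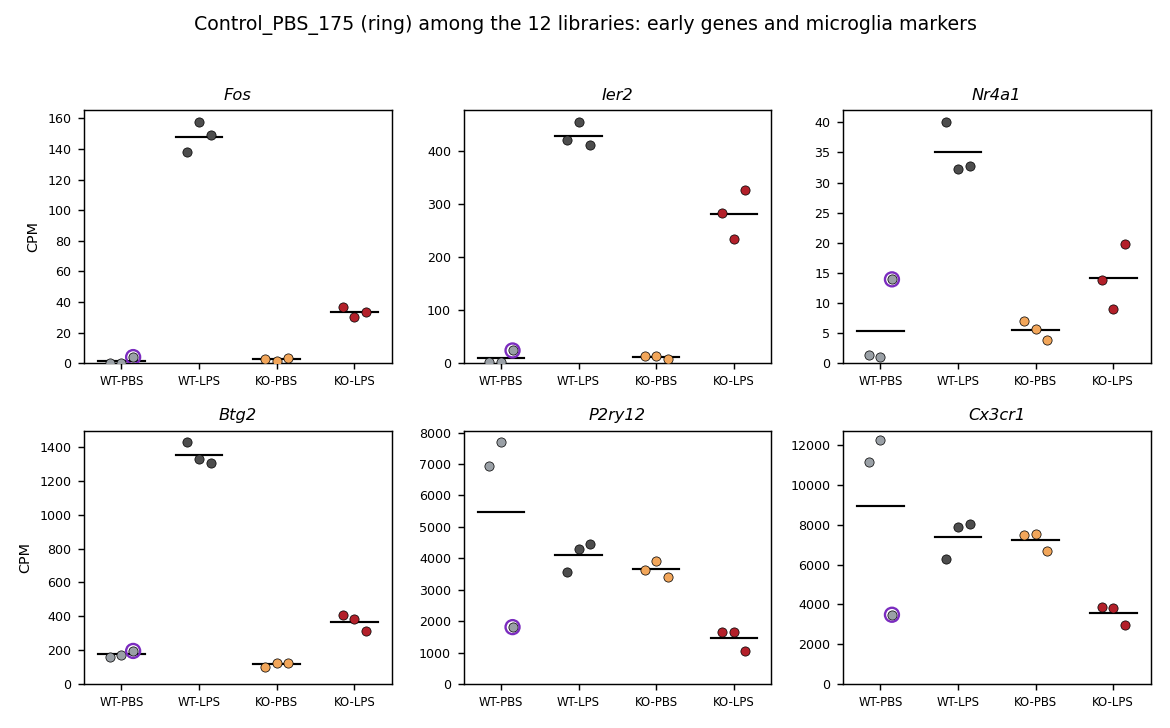
Level in CPM (y axis, linear from 0) of 4 immediate early genes and 2 microglia markers in the 12 libraries by group (x axis), with the group mean as a bar. The ringed library Control_PBS_175 is above the other WT-PBS mice in Fos, Ier2 and Nr4a1, close to them in Btg2, and below them in P2ry12 and Cx3cr1.

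The 125 genes were chosen with Control_PBS_175 in the fit, so their values without it are a description and no sign of stability. Its median difference from the other WT-PBS libraries was 0.14 log2 in the genes of stronger induction, 0.02 in weaker fall, -0.03 in stronger fall and 0.10 in weaker induction, and leaving it out took the median interaction of the same genes from 1.44 to 1.48, from 1.57 to 1.496, from -1.83 to -1.79 and from -1.89 to -1.87. Single genes moved by more, from -0.48 to 0.20 in stronger induction, from -0.37 to 0.35 in stronger fall and from -1.08 to 0.43 in weaker induction, where the shift of -1.08 was that of Egr1. The median ratio of standard errors without and with it was 0.97 to 1.02 over the classes. Of the genes called with it, 23 of 24, 3 of 3, 77 of 80 and 16 of 18 were called again, beside 34 further genes of stronger induction, 4 of weaker fall, 63 of stronger fall and 50 of weaker induction. In 42 of the 50 further genes of weaker induction Control_PBS_175 lay above both other WT-PBS libraries, and their median interaction went from -1.22 to -1.87 and their median standard error from 0.54 to 0.28. In the 34 further genes of stronger induction it lay above both in 8 and below both in 23, and their median interaction was 1.22 with it and 1.21 without it. The 63 further genes of stronger fall divided into 28 above and 34 below, with medians of -1.54 and -1.44. Among the further genes, the median estimate moved most in weaker induction. These genes were called only in the fit without Control_PBS_175, so its position in them and the shifts depend on that choice. Both are given as a description. Over the 17460 genes tested, it lay above the mean of the other 2 WT-PBS libraries in 9022.

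Each of the 12 libraries was left out in turn. Without Control_PBS_170, the counts of stronger induction, weaker fall, stronger fall and weaker induction were 15, 5, 55 and 13, and without Control_PBS_171 they were 10, 2, 21 and 11. Without Control_PBS_175 they were 57, 7, 140 and 67, and this was the only one of the 12 libraries whose removal raised the counts of stronger induction, stronger fall and weaker induction. For the WT-LPS libraries the counts were 23, 4, 61 and 12 without Control_LPS_149, 0, 0, 1 and 0 without Control_LPS_184, and 1, 0, 11 and 3 without Control_LPS_185. For KO-PBS they were 0, 0, 17 and 7 without KO_PBS_638, 2, 0, 19 and 4 without KO_PBS_641, and 1, 1, 19 and 3 without KO_PBS_642. For KO-LPS they were 14, 2, 54 and 14 without KO_LPS_193, 14, 2, 43 and 5 without KO_LPS_194, and 18, 4, 60 and 15 without KO_LPS_600. The gene left without Control_LPS_184 was Rhobtb1, a BTB domain protein named after its values were seen, which was the only gene called in all 12 of these fits. It was at 83.5, 70.5 and 61.7 CPM in WT-PBS and 56.4, 58.1 and 59.1 CPM in WT-LPS. In KO mice it fell from 54.2, 50.3 and 49.0 CPM to 9.94, 9.68 and 7.30 CPM (-2.20 ± 0.19, adjusted p = 0.0014).

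Calls were lost there with small changes in the estimates. Without Control_LPS_184, Spry1 was at -3.58 (adjusted p = 0.012), Sox4 at -2.60 (adjusted p = 0.012), Klf10 at -2.44 (adjusted p = 0.012) and B3gnt7 at -2.00 (adjusted p = 0.012), each just past the threshold of 0.01. These genes and Rnf144b were called in the other 11 of the 12 fits, and 13 of the 80 genes of stronger fall, 3 of the 18 of weaker induction and 0 of the 24 of stronger induction were called in at least 10. Among the named genes of stronger induction, N4bp1, Slc39a14 and Tspan33 were called in 7 of 12, Nfil3 in 5 and Pstpip2 in 3. In weaker induction, Dusp8 and Ccl12 were called in 7 of 12, Egr2 in 6, Kitl in 3, and Egr1, Epha2, Spp1 and Efr3b in 2. Of edgeR, DESeq2 and limma without and with sva, 2 called Spp1 and 3 called Efr3b.

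The method changed the number of genes called. The 125 genes were chosen by edgeR in the same 12 libraries, so their calls and signs under the other methods are a description. DESeq2 called 141 genes of stronger induction, 23 of weaker fall, 309 of stronger fall and 79 of weaker induction. Limma with quality weights called 63, 8, 269 and 56, and limma with 3 surrogate variables from sva, the approach of the study, called 91, 8, 236 and 41. DESeq2 again called 24, 3, 77 and 18 of the genes called by edgeR in these classes, limma 20, 2, 75 and 14, and limma with sva 23, 3, 76 and 16. All 4 methods called 20 of the 24 genes of stronger induction, 2 of 3, 72 of 80 and 14 of 18. With another scaling (RLE) the counts were 25, 4, 63 and 16, and the median interaction over all genes was 0.02 in place of -0.04. The stronger fall was the most frequent class under each of these methods, and the order of the others varied. The fit with a covariate of Xist minus Y-linked expression gave 31, 3, 113 and 23, and called 23, 3, 78 and 18 of the 125 genes again.

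Both together, the method and the library, were tried after seeing the data. Without Control_PBS_175, DESeq2 called 137, 23, 361 and 141 genes and edgeR with the Xist covariate 80, 8, 176 and 69. Limma called 84 genes of stronger induction, 11 of weaker fall and 61 of weaker induction, with 280 in both negative classes. Stronger fall was less frequent under limma than with all 12 libraries (269), whereas it was more frequent under DESeq2 (361 against 309), the Xist fit (176 against 113) and edgeR (140 against 80). Weaker induction was more frequent without the library than with it under DESeq2 (141 against 79), limma (61 against 56) and the Xist fit (69 against 23). Limma with sva called 0 genes on these 11 libraries, with 6.88% of genes at an unadjusted p under 0.05 and a smallest adjusted p of 0.398. In contrast, DESeq2, limma without sva and edgeR called 662, 375 and 271 in all. The 4 surrogate variables of limma with sva beside 4 group means left few residual degrees of freedom, and whether this accounts for the lack of calls was not tested.

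**Figure D5:**
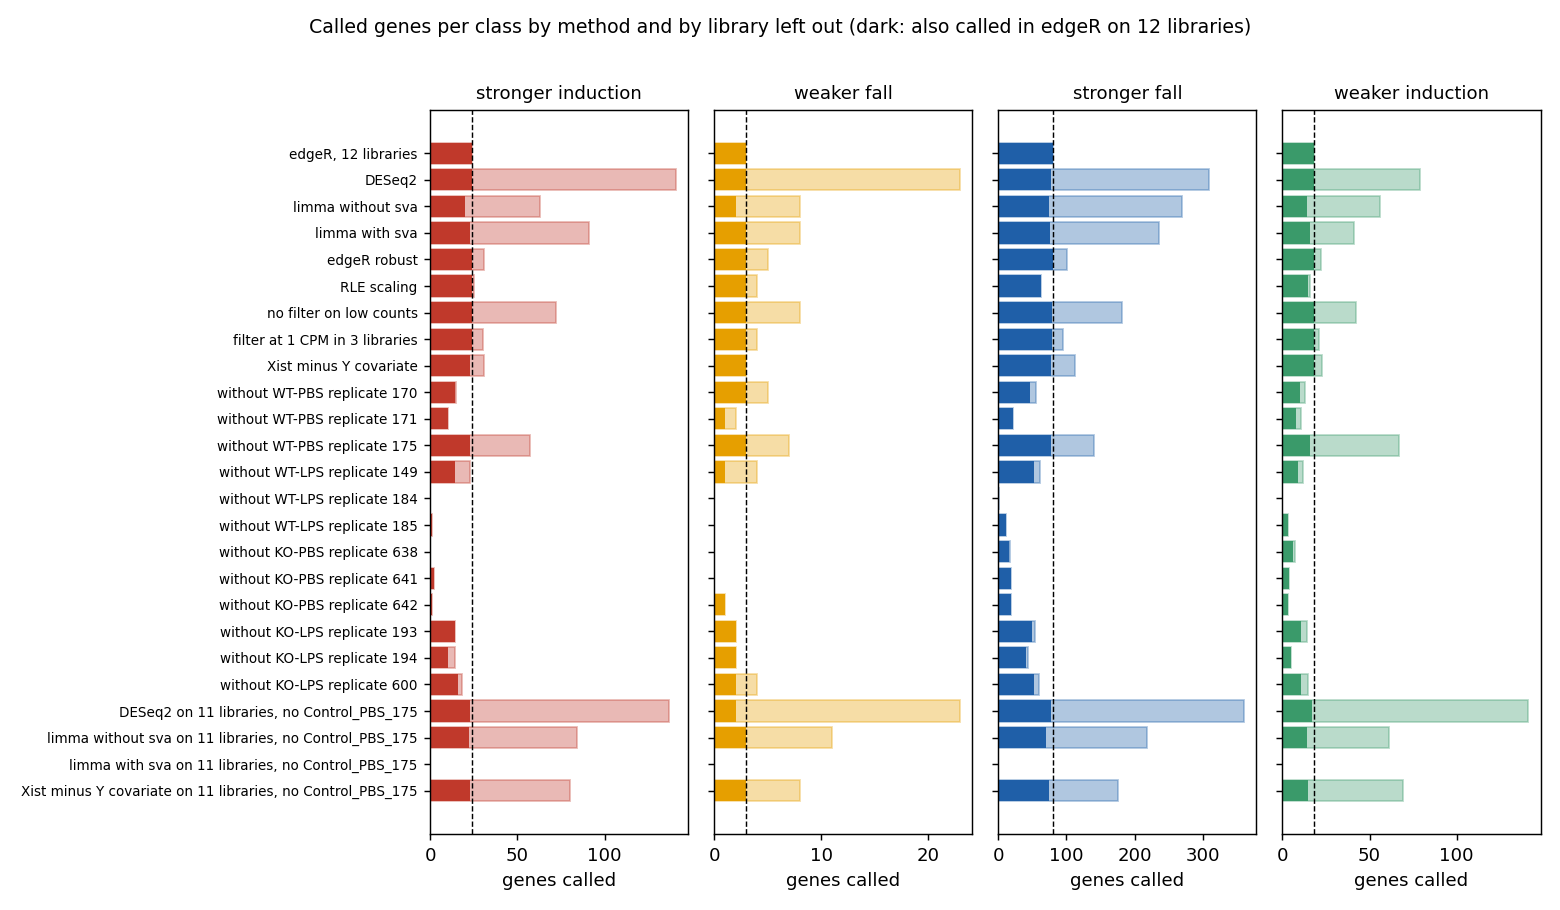
Number of genes called (x axis) in each class under each method and with each library left out (y axis), with the part that edgeR also called on 12 libraries in the darker shade and the edgeR count as a dashed line. Without Control_PBS_175 edgeR calls 57, 7, 140 and 67 genes of stronger induction, weaker fall, stronger fall and weaker induction, against 24, 3, 80 and 18 with it.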

How the data were processed

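RNA from sorted microglia of 12 mice was sequenced by the authors from polyA-selected, directional libraries as single reads, aligned to GRCm38 with STAR 2.7.3a and counted per gene with featureCounts 2.0.0, as the paper and the submitters' processing notes say. Whether the counting used the strand is not given in the sources used here. The deposited table holds expected counts, which are unscaled and not whole for reads shared between genes or places, for 55536 genes, 55450 of them with a symbol. No columns of the authors' own comparisons were used.

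The expected counts were rounded to whole numbers, filtered with filterByExpr (17460 genes) and scaled by TMM. A model of 4 group means was fitted in edgeR 4.0.16 under R 4.3.3 and tested by quasi-likelihood, with Benjamini-Hochberg adjustment over all genes. The standard error is the log2 value divided by the square root of F. CPM values use the TMM-scaled totals. P-values measure the spread between the 3 mice of each group. A call needed an adjusted p under 0.01 and an interaction above 1 or below -1 (log2), and list members and named genes pass at an adjusted p under 0.05. Named genes are the first 10 called genes by size of interaction in each class (all 3 of weaker fall), with at least 5 CPM in a group and a symbol that is not a predicted gene or clone, up to 2 passing members per list, and Ercc1, Il1b, Tnf, Il6, Ccl3, Cxcl11, Clec7a and Axl. Members, lists and tests were chosen with earlier results of these data known.

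Alternatives were DESeq2 1.42.0, limma 3.58.1 with quality weights, without and with sva 3.50.0 (the method of the paper, here with 3 of 4 estimated surrogate variables, since the fit was singular with 4), the robust option of edgeR, RLE scaling, no filter, a filter at 1 CPM in 3 libraries, a covariate of Xist minus Y-linked expression, and each library left out.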

Additional observations from a re-analysis of the deposited data

Results flagged for a closer look

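All values here passed the test of the difference between the genotypes in their LPS response, which is what set them apart, and no explanation was tested. By class, 24 genes showed a stronger induction in KO mice, 3 a weaker fall, 80 a stronger fall and 18 a weaker induction. Among the named genes with a positive log2 interaction, Pstpip2 was at 3.23, Zhx2 at 3.22, Nfil3 at 2.08, N4bp1 at 1.94, Slc31a2 at 1.86, Slc39a14 at 1.82, Hivep1 at 1.81, Tspan33 at 1.74, Gdap10 at 1.69 and Rnf149 at 1.69 in the stronger induction, and Hsph1 at 2.09, Tifa at 1.57 and Dtx3l at 1.07 in the weaker fall.

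In the stronger fall the log2 interaction was -3.63 for Spry1, -3.53 for Mex3b, -3.32 for Rnf144b, -3.29 for Tet1, -2.73 for Sox4, -2.70 for Ebf3, -2.66 for Kctd12b, -2.66 for Zc3h6, -2.64 for Ypel2, -2.43 for E2f2 and -1.97 for Sesn1. In the weaker induction it was -4.85 for Egr1, -4.33 for Egr2, -3.12 for Epha2, -3.10 for Spp1, -2.79 for Efr3b, -2.45 for Klf10, -2.35 for Dusp8, -2.33 for Kitl, -1.91 for B3gnt7 and -1.82 for Ccl12.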

How the results depend on the processing

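All 125 genes called kept the sign of their interaction under each log2-scale alternative except limma with sva on 11 libraries. The alternatives were fitted to all 12 or to 11 of the libraries that chose the genes, so this is a description. In the order stronger induction, weaker fall, stronger fall and weaker induction, the counts of 24, 3, 80 and 18 became 141, 23, 309 and 79 with DESeq2, 63, 8, 269 and 56 with limma, 91, 8, 236 and 41 with limma and sva, 72, 8, 181 and 42 with no filter (28952 genes tested), and 222, 48, 448 and 90 when only an adjusted p under 0.05 was asked. The robust option of edgeR gave 5 genes of weaker fall. In the alternatives added after seeing the data, all without Control_PBS_175, they were 137, 23, 361 and 141 with DESeq2, 84 and 11 with limma, which called 61 genes of weaker induction, 80, 8, 176 and 69 with the Xist covariate and 0, 0, 0 and 0 with limma and sva. Leaving out each library in turn gave 0 to 57, 0 to 7, 1 to 140 and 0 to 67.

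All genes called with a positive and a negative interaction were 27 and 98, and they were 164 and 388 with DESeq2, 71 and 325 with limma, 99 and 277 with limma and sva, 80 and 223 with no filter, 270 and 538 with no minimum fold, 0 to 64 and 1 to 207 with a library left out, and without Control_PBS_175 they were 160 and 502 with DESeq2, 95 and 280 with limma, 88 and 245 with the Xist covariate and 0 and 0 with limma and sva. Pathway list members that passed were 17 and 23, against 39 and 35 with DESeq2, 30 and 41 with limma, 39 and 37 with limma and sva, 26 positive with no filter, 3 to 28 and 12 to 45 with a library left out, and without Control_PBS_175 39 and 57, 34 and 41, 37 and 44, and 0 and 0 in the order above. At the same adjusted p under 0.05, all genes tested gave 270 and 538 with edgeR and 804 and 957 with DESeq2. They gave 568 and 1145 with limma and 596 and 1078 with limma and sva. The cause of these differences was not tested, beyond that a fit without a library has fewer samples.

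The sign was opposite on the CPM scale for Spp1 (431 CPM), Ccl12 (1082 CPM), Cxcl13 (11.3 CPM), Fabp5 (3.08 CPM) and Sesn1 (33.3 CPM), where the difference of CPM differences replaces a ratio of folds, and with limma and sva without Control_PBS_175 for Tet1 (0.59), Spp1 (1.71) and Osm (0.43), which over all fits with a library left out reached down to -3.58, -3.38 and -1.22. No paired analysis was possible because the labels number the mice and no number is shared between groups. Genes near 0 counts in a group, such as Cxcl13, are limited by depth.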

Other observations

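Genes of mitosis had negative estimates as a list. Of 28 tested, 28 were below 0, against 9219 of the 17460 genes tested. The median interaction was -1.195, against -0.04 over all genes. At an adjusted p under 0.05, 4 passed (Cenpf, Bub1, Kif23 and Ttk), with 0 positive. Bub1 and Ttk were near the floor in WT-PBS, at 0.188 to 0.282 CPM and 0.268 to 0.423 CPM. Cenpf, a kinetochore protein, was at 1.48, 1.48 and 0.858 CPM in WT-PBS, 2.06, 2.49 and 1.82 CPM in WT-LPS, 6.05, 9.60 and 9.36 CPM in KO-PBS and 3.80, 4.79 and 3.48 CPM in KO-LPS (-1.80 ± 0.39, adjusted p = 0.024). The KO-PBS libraries were the highest and the WT groups the lowest, and Kif23, a kinesin of cytokinesis, had the same order of the groups (-2.39 ± 0.57, adjusted p = 0.035). The mitosis list in Control_PBS_175 was lower than in the other WT-PBS libraries by a median of 0.92 log2. A lower WT-PBS level makes an interaction more negative, and the part of this library in the list's median was not tested. Without this library 5 mitosis genes passed with a negative interaction, against 4 with it. The number ran from 1 to 5 with a library left out, and over all genes the negative interactions then ran from 214 to 831. Genes of DNA replication had a median of -0.64 with 0 of 27 passing. Small ribosomal subunit proteins (median 0.11), lysosome genes (0.12) and antigen presentation genes (0.09) had 0 members passing in edgeR with 12 libraries.

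Genes whose estimate changed sign when Control_PBS_175 was left out numbered 5 among the 50 further genes of weaker induction, which were chosen by that fit. Pik3ip1, an inhibitor of PI3 kinase chosen after its values were seen, was at 3.06 and 2.96 CPM in Control_PBS_170 and Control_PBS_171 and at 328 CPM in Control_PBS_175, above all other 11 libraries (2.96 to 33.1 CPM). Its interaction was 2.51 ± 1.76 (adjusted p = 0.461) with that library and -2.65 ± 0.37 (adjusted p = 0.0019) without it. Sik1 (0.70 and -1.91) and Plaur (0.35 and -1.88) changed sign in the same way, with 21.02 and 39.9 CPM in Control_PBS_175 against 1.198 to 1.303 and 2.68 to 3.70 CPM in the other WT-PBS libraries.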
